A study of Homo sapiens with 24 samples.

Results

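Oxidative phosphorylation (OXPHOS) is carried out by 5 multi-subunit complexes of the inner mitochondrial membrane, and the genes described here are its nuclear-encoded subunits in U251 glioblastoma (GBM) cells exposed to G-1. Members were taken by symbol, from array probes whose RefSeq transcript belongs to the NDUFA, NDUFB, NDUFC, NDUFS or NDUFV families, to SDHA, SDHB, SDHC or SDHD, to the UQCR family, to COX4 through COX8, or to the ATP5F, ATP5M and ATP5P families, leaving out NDUFAF assembly factors, pseudogenes and antisense genes. The rule itself uses no measured value, though members were chosen with earlier results of these data known. The array held 84 such genes on 110 probes, of 24843 genes with a symbol and 58201 probes in all. ATP5MF-PTCD1, NDUFC2-KCTD14 and UQCRHL also meet the rule but had no probe matched to them. By complex they were 37 genes of complex I, 4 of complex II, 8 of complex III, 17 of complex IV and 18 of complex V. Of the 84 genes, 79 (on 104 probes) passed the filter for signal above background, and each of these 79 was well above background on all 24 arrays.

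Complexes I to IV form the respiratory chain, which passes electrons from NADH and succinate to oxygen and pumps protons. Complex V, the ATP synthase, uses the proton gradient to make ATP. Complexes I, III, IV and V are built from subunits of both the nuclear and the mitochondrial genome, whereas complex II is entirely nuclear-encoded. GBM cells draw on glycolysis and on oxidative phosphorylation to differing degrees.

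U251 is an established human GBM cell line, and G-1 is a synthetic agonist of the G protein-coupled estrogen receptor GPER. Cells received the vehicle DMSO (0.1% in the sample labels), the IC50 dose of G-1, or 1 µM G-1, each for 24 h or 72 h, giving 6 groups of 4 arrays from 4 independent experiments. RNA was read on 1-colour Agilent arrays with 60901 spots for RNA each. Values below are log2 intensities with the 75th percentile of each array set to 0, so that a difference of 1 is a doubling. A gene was read from its brightest probe, and "called" means an adjusted p under 0.05 in limma, with Benjamini-Hochberg adjustment over all 22970 probes tested. These are whole cultures, in which fewer expressing cells and less RNA per cell cannot be told apart.

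The arrays lay on 3 slides of 8, and the 8 arrays of G-1 1 µM filled the third slide, which was also scanned in a session of its own. On that slide 38.0% to 40.7% of spots were well above background, against 41.1% to 44.5% on the other 16 arrays. For any comparison of G-1 1 µM with DMSO or with the IC50 dose, dose and slide therefore cannot be told apart. The comparison of 72 h with 24 h under 1 µM lies within 1 slide, and DMSO and IC50 arrays shared the other slides. Replicates of a group correlated at 0.990 to 0.996 over tested probes, and the median SD of a member between replicates was 0.0897 log2. The astroglial and glioma markers VIM, GFAP, NES, CD44, S100B and SOX2 were above background on every array. Of the markers of other cell types, PTPRC (leukocytes), EPCAM (epithelium) and PECAM1 (endothelium) were above it on none. RBFOX3 (neurons) and MBP (oligodendrocytes) were above it on all 24.

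At the IC50 dose no OXPHOS subunit changed detectably. At 24 h, 0 of 79 members were called, beside 0.246% of all 14233 genes, and 0 had an unadjusted limma p under 0.05. At 72 h, 0 of 79 were called, beside 0.906% of all genes, and 7 had an unadjusted p under 0.05. The methods' t-test, after Benjamini-Hochberg adjustment, also called 0 at either time. Differences ran from -0.19 to 0.31 at 24 h and from -0.26 to 0.40 at 72 h. The 95% confidence interval of the difference lay within 0.5 log2 of no change for 76 members at 24 h, all but SDHD, COX6B2 and ATP5MGL, and for 77 at 72 h, all but SDHD and ATP5MGL.

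With the 75th percentile scaling, 64 of 79 members at 24 h and 62 of 79 at 72 h had a difference below 0, as did 7898 and 7944 of all 14233 genes. Their median difference was -0.042 log2 at 24 h and -0.072 at 72 h, against -0.013 and -0.018 over all genes. With the 50th percentile the members' median was 0.045 and 0.013, so the sign of these small differences depends on the scaling. Within slides the median was -0.008 and -0.006 at 24 h, and -0.086 and -0.041 at 72 h. At 72 h, 10 members had all 4 IC50 arrays below all 4 DMSO arrays and none had the opposite order, while 7.55% of all genes did not overlap in either order. UQCR11, a small subunit of complex III, had the largest of the lower differences. It read 9.44, 9.43, 9.38 and 9.67 on the DMSO arrays at 72 h and 9.20, 9.27, 9.18 and 9.21 on the IC50 arrays. Its groups did not overlap, yet the difference of -0.26 ± 0.09 (SE, n = 4 per group) was not called (limma adjusted p = 0.287).

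**Figure D1:**
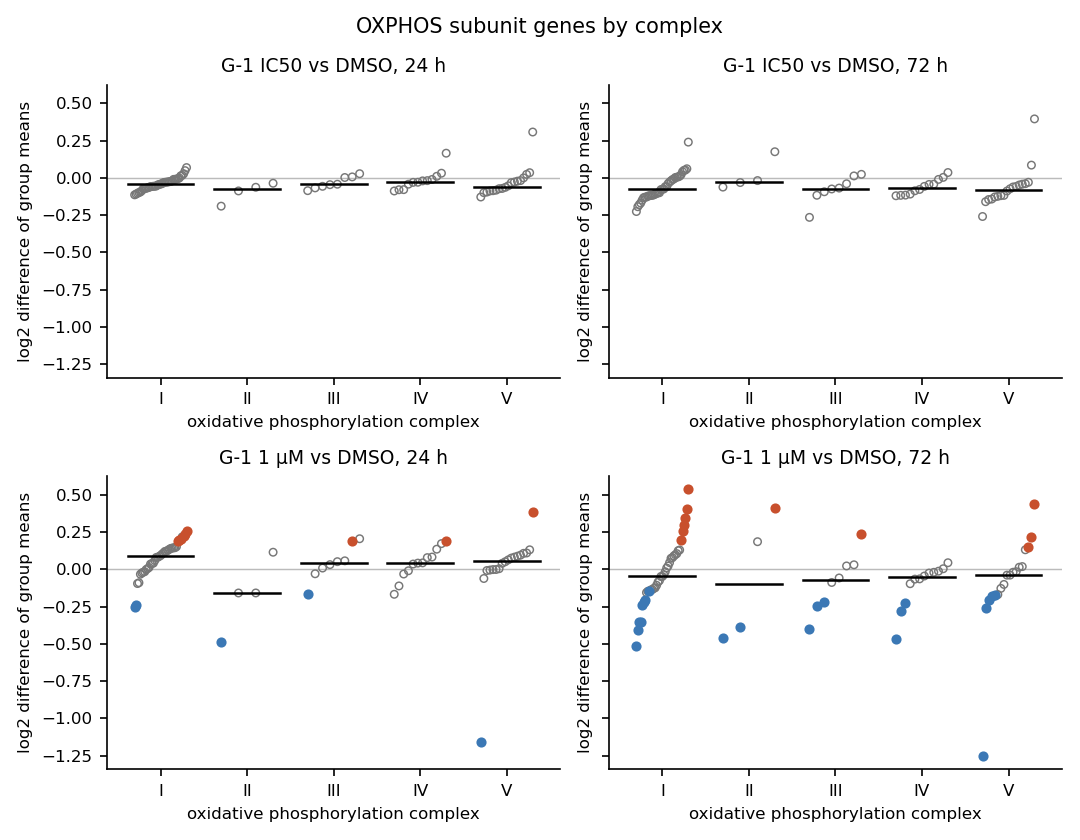
Log2 difference of group means for each of the 79 tested OXPHOS subunit genes (points), by complex, in the 4 comparisons with DMSO; filled points were called (red higher, blue lower), open points were not, and black lines are medians. No point is filled at the IC50 dose, 14 are at 1 µM for 24 h and 32 at 1 µM for 72 h, and ATP5MGL of complex V lies apart at -1.16 and -1.25.

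With 1 µM G-1, subunits changed in both directions, by small amounts. At 24 h, 14 of 79 members were called (17.7%), 9 higher and 5 lower, beside 30.6% of all genes, 20% higher and 10.5% lower. At 72 h, 32 of 79 were called (40.5%), 11 higher and 21 lower, beside 66.1% of all genes. Of all genes, 35.2% were higher and 31.0% lower at 72 h, and of the members 13.9% and 26.6%. Apart from ATP5MGL, the called members differed by 1.12-fold to 1.4-fold at 24 h and by 1.1-fold to 1.45-fold at 72 h. Only ATP5MGL was called with a change above 2-fold, beside 12.3% of all genes at 72 h, and its DMSO arrays differed by slide, as given below. The 4 treated arrays did not overlap the 4 DMSO arrays for 15 members at 24 h, beside 30.3% of all genes, and for 30 at 72 h (11 higher, 19 lower), beside 58.7% of all genes.

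Most of the 72 h calls did not depend on how arrays were scaled, whereas the 24 h calls did. Under all 7 scalings tried (the 75th percentile and 6 others), the same 6 members stayed higher at 72 h (NDUFA9, NDUFAB1, NDUFB8, NDUFV3, SDHB and ATP5F1C) and the same 20 stayed lower. At 24 h only ATP5F1D (higher) and ATP5MGL (lower) did so. There the split of 9 higher and 5 lower turned to 2 and 8 with the 75th percentile taken over probes detected on all arrays, to 3 and 8 with quantile normalization, to 2 and 10 with cyclic loess, to 1 and 8 with normexp background correction, and to 1 and 1 with the 50th percentile. At 72 h, 11 and 21 became 7 and 37 under the first and under cyclic loess, and 6 and 27 with the 50th percentile. The 24 h direction of the group as a whole is thus not settled by these arrays.

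The 24 h count also fell, from 14 to between 5 and 10, when any 1 of the 8 arrays compared was left out. It was 7 without DMSO replicate 1, 5 without DMSO replicate 2, 9 without DMSO replicate 3, and 7 and 9 without G-1 1 µM replicates 1 and 3. At 72 h 66.1% of all genes were called, and the overlap of the 2 times was not counted over all genes. Of the 14 members called at 24 h, 6 were called at 72 h too, all in the same direction. These were NDUFV3 and ATP5F1D, higher at both times, and NDUFA5, NDUFB5, UQCRC2 and ATP5MGL, lower at both. The 24 h calls of NDUFB5 and UQCRC2 were each lost under 11 of the alternatives tried, for UQCRC2 on leaving out any of the 4 DMSO arrays, and that of ATP5MGL was lost without DMSO replicate 2. The 24 h and 72 h comparisons share no arrays, but the 1 µM arrays of both times lay on 1 slide and the DMSO arrays on the others. Dose and slide thus cannot be told apart in the shared direction either.

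Complex II shows the opposing changes within a complex most plainly. SDHA is its flavoprotein, which oxidises succinate, SDHB its iron-sulfur protein, and SDHC and SDHD anchor both in the membrane and bind ubiquinone. At 72 h SDHB rose while SDHA and SDHC fell, so that 3 of 4 genes were called, beside 66.1% of all genes. The promoters of SDHA, SDHB and SDHD are shown, as the 250 bases before the transcription start (RefSeq, GRCh38.p14, read 5′ to 3′ on the gene's strand). No promoter window was available for SDHC. Capitals mark matches to the NRF1 core, which is GCGCA followed by its reverse complement and reads the same on both strands, or to the ETS core CCGGAAG on either strand; NRF1 and the ETS factor GABP are known regulators of OXPHOS promoters. SDHA lies on the plus strand (chr5:218070-218319), SDHB on the minus strand (chr1:17054033-17054282) and SDHD on the plus strand (chr11:112086623-112086872).
SDHA: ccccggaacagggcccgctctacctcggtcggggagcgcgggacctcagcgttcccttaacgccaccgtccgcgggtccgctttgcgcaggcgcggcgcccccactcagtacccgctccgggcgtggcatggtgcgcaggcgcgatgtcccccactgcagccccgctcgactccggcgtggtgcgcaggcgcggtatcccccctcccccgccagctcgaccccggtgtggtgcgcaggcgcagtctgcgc
SDHB: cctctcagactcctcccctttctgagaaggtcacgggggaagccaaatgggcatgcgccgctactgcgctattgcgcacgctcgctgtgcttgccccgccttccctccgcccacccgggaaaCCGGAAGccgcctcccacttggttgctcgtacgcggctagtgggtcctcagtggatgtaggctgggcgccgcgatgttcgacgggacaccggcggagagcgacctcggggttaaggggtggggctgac
SDHD: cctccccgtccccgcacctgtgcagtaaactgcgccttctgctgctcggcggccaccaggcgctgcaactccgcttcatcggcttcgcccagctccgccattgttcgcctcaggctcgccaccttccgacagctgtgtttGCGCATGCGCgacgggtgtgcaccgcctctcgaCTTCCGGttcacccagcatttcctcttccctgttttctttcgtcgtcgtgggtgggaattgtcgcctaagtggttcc
SDHB held an ETS core 128 bases before the start. SDHD held an NRF1 core at 110 and an ETS core, on the opposite strand, at 77. SDHA held neither in exactly these letters. Variants of the cores were not searched for, so this does not show that SDHA lacks such sites.

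SDHB read 5.81, 5.88, 5.86 and 5.92 on the DMSO arrays at 72 h and 6.32, 6.21, 6.26 and 6.34 on the G-1 1 µM arrays. Every treated array was above every DMSO array, and so above the IC50 arrays, of which 3 (5.89, 5.90 and 5.82) lay within the DMSO range and 1 (5.61) below it. The difference was 0.42 ± 0.07 (SE), 1.33-fold (limma adjusted p = 3.99e-05).

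SDHA read 6.47, 6.61, 6.52 and 6.74 under DMSO at 72 h and 6.16, 6.02, 6.18 and 6.13 under 1 µM. The groups did not overlap in the opposite sense, with a difference of -0.46 ± 0.08, or 1.38-fold lower (limma adjusted p = 2.06e-05). SDHA has 4 probes on the array, all lower at 72 h, of which a dimmer probe at -0.31 was also called while those at -0.20 and -0.11 were not.

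SDHC read 5.90, 5.93, 5.74 and 5.96 under DMSO at 72 h and 5.58, 5.33, 5.58 and 5.49 under 1 µM. Again no array crossed over, and the difference was -0.39 ± 0.07 (limma adjusted p = 8.52e-05). Of its 3 dimmer probes, those at -0.67 and -0.61 were called and that at 0.03 was not.

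SDHD differed from the other 3 in its timing. At 24 h it read 3.47, 3.76, 3.50 and 3.73 under DMSO and 2.86, 3.11, 3.25 and 3.30 under 1 µM. All treated arrays were below all DMSO arrays, with a difference of -0.49 ± 0.16 (limma adjusted p = 0.0247). At 72 h DMSO arrays read 3.20, 3.43, 3.03 and 3.36 and 1 µM arrays 3.79, 3.08, 3.38 and 3.53. Those groups overlapped, with a difference of 0.19 ± 0.16 that was not called. The difference between the 2 effects was itself called, at 0.68 ± 0.22 (limma adjusted p = 0.026), and SDHD's other probes, at -0.47 and -0.56 at 24 h and both at 0.08 at 72 h, ran the same way. SDHD was lost from the 24 h calls under 6 of the alternatives tried, among them leaving out DMSO replicate 2 or 4 or G-1 1 µM replicate 1 or 2, and from the calls of that difference under 6.

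**Figure D2:**
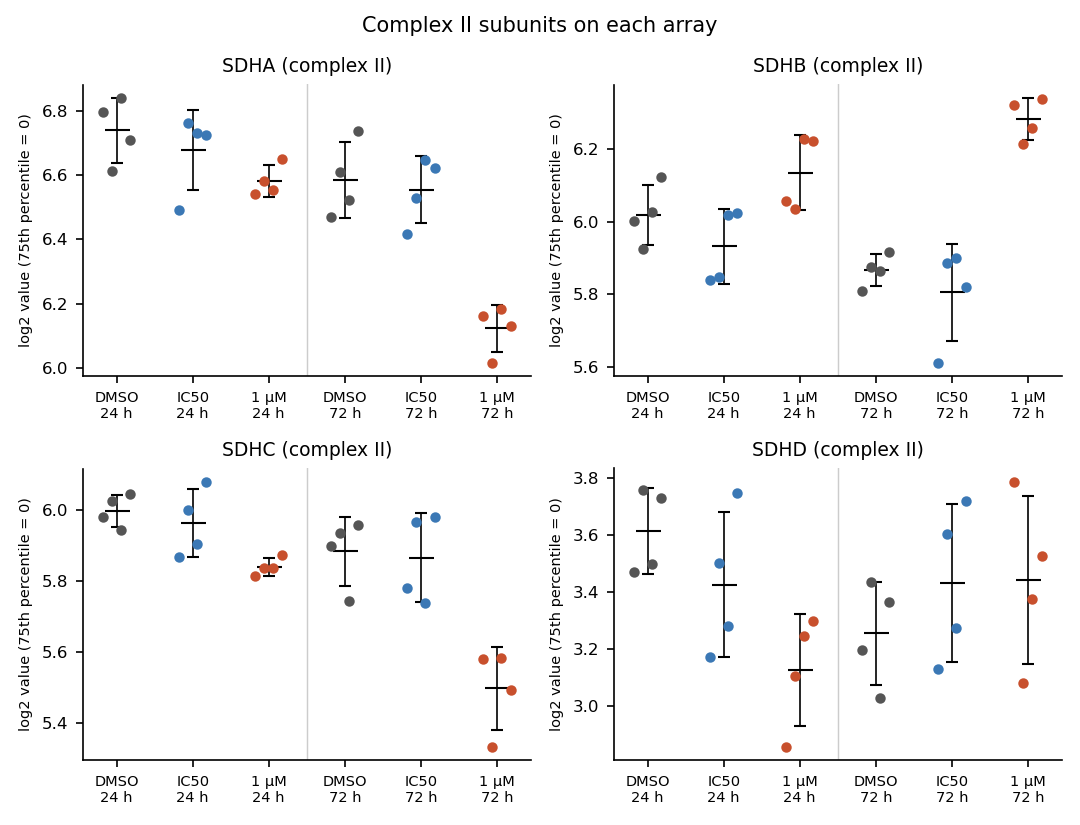
Log2 value (75th percentile of the array at 0) of the 4 complex II subunits on each of the 24 arrays, with group mean and SD; grey DMSO, blue G-1 IC50, red G-1 1 µM. At 72 h the 1 µM arrays lie above all DMSO arrays for SDHB and below them for SDHA and SDHC, and for SDHD they lie below only at 24 h.

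In complex I, the NADH dehydrogenase, 14 of 37 genes were called at 72 h (37.8%, beside 66.1% of all genes), 6 higher and 8 lower. The 7 core subunits, which carry the flavin and iron-sulfur centres, held 1 call, NDUFV2 at 0.20, and the other 6 lay between -0.14 and 0.09. Of the 30 accessory subunits, which make up most of these genes, 5 rose and 8 fell. The subunits that rose were NDUFA9, NDUFAB1, NDUFB8 (0.34), NDUFV3 (0.30) and NDUFC2 (0.26). Those that fell were NDUFB5, NDUFA10, NDUFA5 (-0.35), NDUFB1 (-0.35), NDUFA2 (-0.24), NDUFA7 (-0.22), NDUFA13 (-0.20) and NDUFB4 (-0.14).

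NDUFA9, an accessory subunit near the junction of the matrix and membrane arms, read 2.59, 2.55, 2.71 and 2.50 under DMSO and 3.30, 3.06, 3.15 and 3.00 under 1 µM at 72 h. It rose the most of all members, on every array, by 0.54 ± 0.08 or 1.45-fold (limma adjusted p = 1.41e-05). NDUFAB1, the mitochondrial acyl carrier protein, read 6.0, 6.06, 6.03 and 6.11 under DMSO and 6.50, 6.42, 6.47 and 6.42 under 1 µM. Its groups stood clear of each other, with a difference of 0.40 ± 0.06 (limma adjusted p = 9.69e-06).

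NDUFB5, a membrane-arm subunit, read 5.45, 5.64, 5.40 and 5.55 under DMSO and 5.04, 4.85, 5.03 and 5.06 under 1 µM. It fell by 0.51 log2 (SE 0.09, limma adjusted p = 5.48e-05), with no overlap, although a dimmer probe for it read -0.05 and was not called. NDUFA10, another accessory subunit of the membrane arm, read 6.38, 6.41, 6.35 and 6.48 under DMSO and 6.03, 5.95, 5.99 and 6.03 under 1 µM. All treated arrays were lower, by 0.41 ± 0.06 on average (difference -0.41, limma adjusted p = 6.09e-06), and its IC50 arrays, at 6.25, 6.26, 6.26 and 6.26, lay between the other groups.

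NDUFC2 was uncertain, because its probes disagreed. The brightest rose by 0.26 at 72 h, and a dimmer one fell by 1.04 log2 (limma adjusted p = 1.17e-06) and by 0.69 at 24 h. COX5A of complex IV gave a similar split, at 0.01 for its brightest probe and -1.12 for a dimmer one (adjusted p = 0.000794), as did UQCRB of complex III, at 0.02 and -0.70. Of the 18 members with more than 1 tested probe, 10 had probes that differed in call or sign of call at 72 h and 5 at 24 h. Counted by probe, 42 of 104 were called at 72 h, beside 64.3% of all probes, and 19 at 24 h, beside 29.7%.

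In complex III, cytochrome bc1, 4 of 8 genes were called at 72 h, beside 66.1% of all genes. The core proteins UQCRC1 and UQCRC2 parted, and the small subunits UQCR11 and UQCRQ fell, while the Rieske iron-sulfur protein UQCRFS1 stayed at 0.03. UQCR11 is shown with its promoter (chr19:1605463-1605712, minus strand, RefSeq, GRCh38.p14), which held the ETS core once on each strand, at 117 and 97 bases before the start.
UQCR11: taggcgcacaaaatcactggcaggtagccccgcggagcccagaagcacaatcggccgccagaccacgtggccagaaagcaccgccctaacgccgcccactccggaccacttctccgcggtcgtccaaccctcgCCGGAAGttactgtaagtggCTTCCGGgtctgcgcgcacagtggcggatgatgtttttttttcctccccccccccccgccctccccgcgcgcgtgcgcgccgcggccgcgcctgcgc
UQCR11 read 9.26, 9.05, 8.92 and 9.10 under 1 µM at 72 h, all below the DMSO arrays given above. The difference was -0.40 ± 0.09 (limma adjusted p = 0.000694).

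UQCRC1 read 6.73, 6.75, 6.86 and 6.76 under DMSO and 6.89, 7.16, 7.04 and 6.97 under 1 µM at 72 h. The lowest treated array was just above the highest DMSO array, at a difference of 0.24 ± 0.08 (limma adjusted p = 0.0117), a call lost with the 50th percentile, with the 75th percentile over probes detected on all arrays and with cyclic loess. UQCRC2 read 4.44, 4.48, 4.39 and 4.51 under DMSO and 4.28, 4.08, 4.30 and 4.18 under 1 µM. It fell on every array, by 0.24 ± 0.06 on average (difference -0.24, limma adjusted p = 0.0016). UQCRQ read 9.57, 9.49, 9.54 and 9.69 under DMSO and 9.49, 9.34, 9.26 and 9.33 under 1 µM. The highest treated array just overlapped the lowest DMSO array, at a difference of -0.22 ± 0.08 (limma adjusted p = 0.0247). This call was lost without DMSO replicate 4 and without G-1 1 µM replicate 3 or 4.

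In complex IV, cytochrome c oxidase, no nuclear subunit was called higher at 72 h and 3 of 12 tested genes fell (25.0%, beside 31.0% of all genes). COX7C read 8.59, 8.58, 8.60 and 8.76 under DMSO and 8.46, 8.33, 8.29 and 8.33 under 1 µM. No array overlapped, and the difference was -0.28 ± 0.06 (limma adjusted p = 0.000534). COX5B read 7.33, 7.23, 7.30 and 7.42 under DMSO and 7.22, 7.03, 7.03 and 7.10 under 1 µM. The groups were barely apart, at -0.23 ± 0.08 (limma adjusted p = 0.0165), a call lost without DMSO replicate 4.

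The isoforms of complex IV known from single tissues were mostly silent. COX4I2, COX6A2, COX7A1 and COX7B2 were above background on 0 of 24 arrays and COX8C on 1, and these were the 5 members left out of the tests. COX6B2, best known from testis, was the exception and was read on all 24 arrays. It read 4.95, 4.55, 4.99 and 4.87 under DMSO at 72 h and 4.48, 4.40, 4.24 and 4.36 under 1 µM. The groups did not overlap, narrowly, with a difference of -0.46 ± 0.18 (limma adjusted p = 0.0268), and its second probe was above background on 4 arrays only. The call was lost under 5 of the alternatives tried, among them leaving out DMSO replicate 1, 3 or 4 or G-1 1 µM replicate 3. COX4I1, the ubiquitous isoform of the same subunit as COX4I2, read 7.15, 7.29, 7.30 and 7.47 under DMSO and 7.36, 7.24, 7.27 and 7.25 under 1 µM, with full overlap. Its interval of -0.17 to 0.12 bounds any change. COXFA4, formerly named NDUFA4 and now placed in complex IV, is outside the symbol rule and was lower at -0.27 (adjusted p = 0.00768).

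In complex V, 8 of 18 genes were called at 72 h (44.4%, beside 66.1% of all genes). The F1 head holds the catalytic and rotor parts. Of its 5 genes, ATP5F1C and ATP5F1D rose, ATP5F1A and ATP5F1E fell, and ATP5F1B (0.13) was not called. In the c ring, which turns with the proton flow, ATP5MC3 was higher (0.15) and ATP5MC2 lower (-0.21), and ATP5MC1 read -0.01. The 72 h calls of ATP5F1A, ATP5F1D and ATP5MC3 did not hold under all 7 scalings. None of the 4 peripheral stalk genes was called, with values from -0.17 to 0.02. The promoter of ATP5F1C, the gamma subunit of the rotor, is shown because this gene rose most in the complex (chr10:7787927-7788176, plus strand, RefSeq, GRCh38.p14). It held an NRF1 core 22 bases before the start.
ATP5F1C: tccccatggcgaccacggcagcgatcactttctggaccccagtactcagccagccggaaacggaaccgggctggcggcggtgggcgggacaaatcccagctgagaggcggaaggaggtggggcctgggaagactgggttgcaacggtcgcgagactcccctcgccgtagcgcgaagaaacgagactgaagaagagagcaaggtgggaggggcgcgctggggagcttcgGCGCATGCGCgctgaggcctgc
ATP5F1C read 3.86, 4.00, 3.72 and 3.88 under DMSO and 4.35, 4.23, 4.33 and 4.30 under 1 µM at 72 h. All treated arrays were higher, with a difference of 0.44 ± 0.08, 1.36-fold (limma adjusted p = 4.65e-05).

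ATP5F1D, the delta subunit, was higher at both times. At 24 h it read 5.94, 5.76, 5.95 and 6.04 under DMSO and 6.36, 6.14, 6.30 and 6.42 under 1 µM, without overlap, and at 0.38 ± 0.08 (limma adjusted p = 0.00206) this was the largest rise among members at that time. At 72 h it read 6.03, 5.99, 6.15 and 6.03 under DMSO and 6.17, 6.39, 6.25 and 6.25 under 1 µM, again without overlap, a difference of 0.22 ± 0.08 (limma adjusted p = 0.0277) that was lost under 10 of the alternatives tried, among them leaving out DMSO replicate 1, 2 or 4 or G-1 1 µM replicate 2. ATP5F1E, the epsilon subunit, read 10.11, 10.07, 10.12 and 10.31 under DMSO and 10.07, 9.87, 9.69 and 9.94 under 1 µM at 72 h. The treated arrays were lower, with the closest pair almost touching, at -0.26 ± 0.10 (limma adjusted p = 0.0222), lost without DMSO replicate 4 or G-1 1 µM replicate 3. Its dimmer probe rose by 0.46 (adjusted p = 0.0164), and the mean of the probes came to 0.10, which was not called.

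ATP5MGL, a close copy of ATP5MG whose probe may also bind ATP5MG RNA, gave the largest difference of any member. It read 4.22, 3.05, 4.23 and 2.78 under DMSO at 72 h and 2.35, 2.24, 2.46 and 2.24 under 1 µM. The treated arrays, all on the third slide, were tight and low, while the DMSO arrays fell into a high pair on slide 2 and a low pair on slide 1. The same spread ran through DMSO at 24 h (3.09, 4.33, 3.13 and 3.26) and the IC50 arrays at 72 h (4.34, 2.95, 4.25 and 4.34). There too the high arrays lay on slide 2 and the low ones on slide 1. The value thus followed the slide without 1 µM G-1, and dose and slide cannot be told apart in its difference. The difference was -1.25 ± 0.36 (limma adjusted p = 0.00484). ATP5MG itself read -0.04 and was not called.

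**Figure D3:**
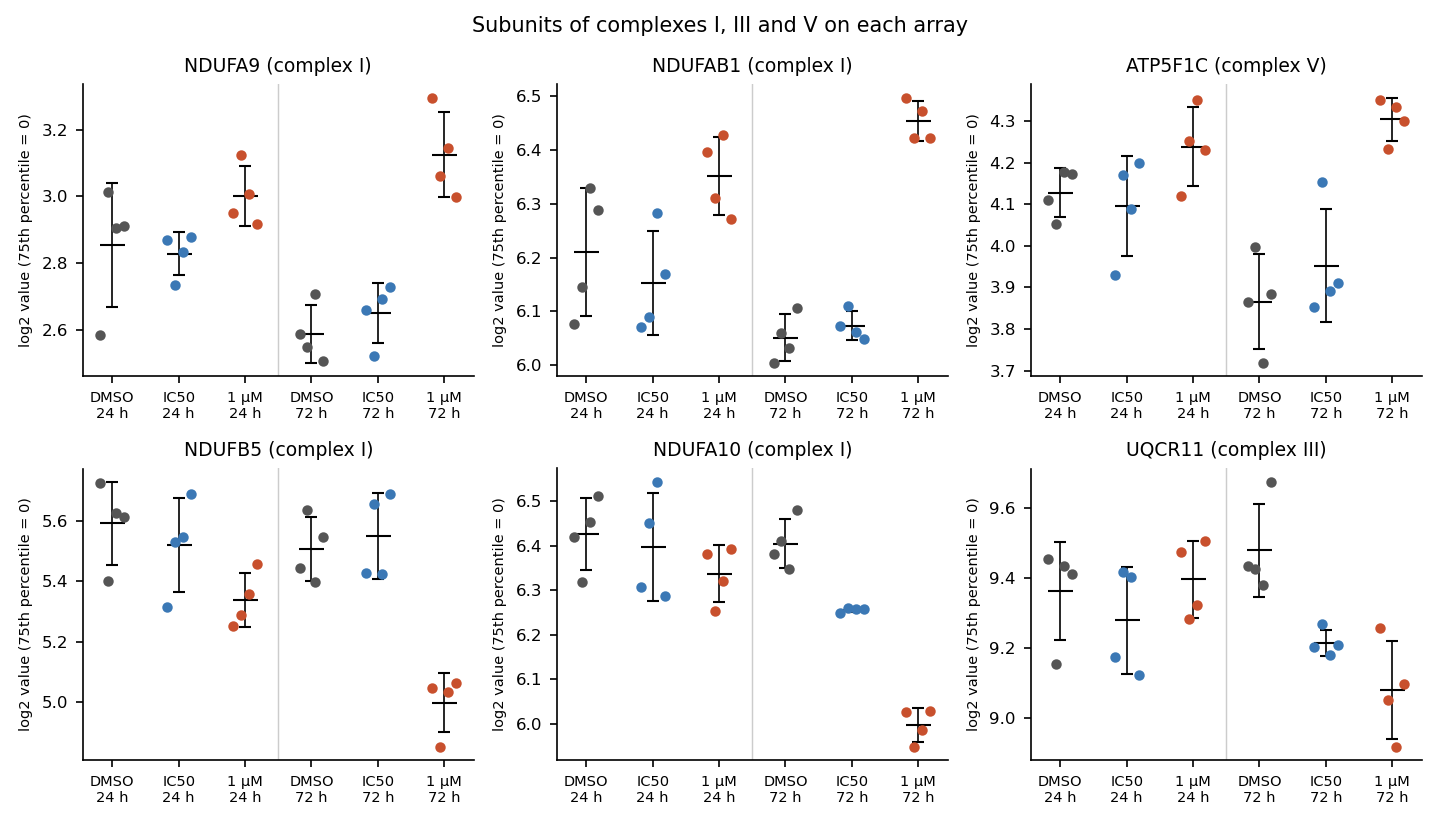
Log2 value (75th percentile of the array at 0) of 6 subunits of complexes I, III and V on each of the 24 arrays, with group mean and SD; grey DMSO, blue G-1 IC50, red G-1 1 µM. At 72 h the 1 µM arrays lie above all DMSO arrays for NDUFA9, NDUFAB1 and ATP5F1C, and below them for NDUFB5, NDUFA10 and UQCR11.

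From 24 h to 72 h under 1 µM, the members moved more uniformly, and downward. This comparison lies within 1 slide. Of 79 members, 41 were called, 40 lower and 1 higher (NDUFV3, 0.14), beside 43.2% of all genes called, 18.9% higher and 24.3% lower. The median member difference was -0.185 log2, against -0.011 over all genes. Under every scaling the members' median minus that of all genes stayed between -0.17 and -0.12, and 23 of the 40 remained called as lower. For 36 members (35 of them lower) the arrays of the 2 times did not overlap, beside 39.4% of all genes.

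By complex, 22 of 37 genes of complex I were lower, 2 of 4 of complex II, 4 of 8 of complex III, 8 of 12 of complex IV and 4 of 18 of complex V. The median was -0.20, -0.10, -0.21, -0.23 and -0.08 in turn. In complex IV all 12 genes lay below 0, from -0.36 for COX5B to -0.01. SDHA had the largest decrease, from 6.54, 6.58, 6.55 and 6.65 at 24 h to 6.16, 6.02, 6.18 and 6.13 at 72 h. Every late array was lower, at -0.46 ± 0.08 (limma adjusted p = 5.71e-05). NDUFB1 (-0.42) and NDUFS7, the iron-sulfur subunit that hands electrons to ubiquinone (-0.39), followed.

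The same interval in the other groups gave no call in the fit without a replicate block. Under DMSO 0 of 79 members were called, beside 3.34% of all genes, with 10 at an unadjusted limma p under 0.05 and a median of -0.051. With the replicate number as a block that DMSO count was 2, and with normexp it was 3. Under the IC50 dose 0 of 79 were called, beside 4.14% of all genes, with 8 at an unadjusted p under 0.05 and a median of -0.080. The test of the difference, which asks whether 1 µM G-1 acted differently at 72 h than at 24 h, called 16 of 79 members, 5 higher and 11 lower, beside 34.1% of all genes, 16.4% higher and 17.7% lower.

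The 5 with the higher value were NDUFA9 (0.39), NDUFAB1 (0.26), SDHB (0.30), SDHD (0.68) and ATP5F1C (0.33). Under DMSO their 72 h minus 24 h differences, none of them called, ran from -0.36 for SDHD to -0.15 for SDHB. Of the 11 with the lower value, UQCR11 (-0.43), ATP5F1E (-0.37), NDUFS7 (-0.35) and NDUFA13 (-0.34) had the largest. NDUFA10 (-0.32), NDUFB1 (-0.32) and COX7C (-0.32) came next, followed by SDHA (-0.30), NDUFV1 (-0.29), NDUFA11 (-0.28) and NDUFA1 (-0.27). Only UQCR11 and NDUFA13 kept this call under all 7 scalings. The count was 10 without DMSO replicate 2 at 24 h and 9 without G-1 1 µM replicate 1 at 24 h. With no filter on dim probes it was 0, and single calls were lost under up to 17 alternatives (ATP5F1E), 9 for SDHA and 8 for SDHB. For the IC50 dose this test called 0 of 79 members, beside 0.0141% of all genes, with 0 at an unadjusted p under 0.05.

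**Figure D4:**
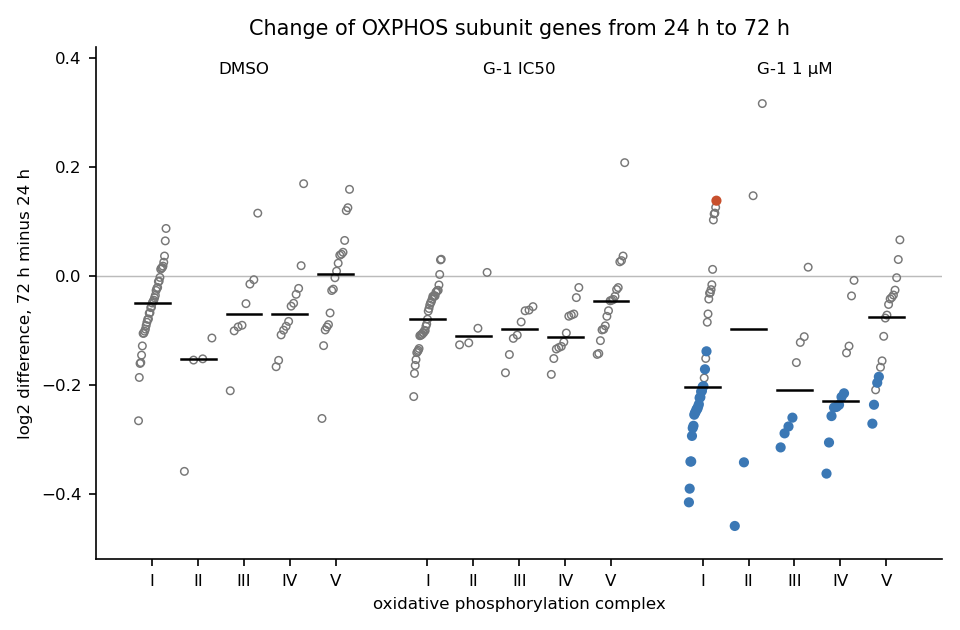
Log2 difference of 72 h minus 24 h for each tested subunit gene, by complex, for DMSO, the IC50 dose and 1 µM; filled points were called (red higher, blue lower) and black lines are medians. Points are filled only under 1 µM, where 40 lie below 0 and 1 above.

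Members were also compared between 1 µM and the IC50 dose. The IC50 and DMSO arrays are different arrays, but the 1 µM arrays are shared with the comparisons above. At 24 h, 14 members were called, 13 higher and 1 lower, beside 26.5% of all genes, 18.2% higher and 8.33% lower. That split turned to 6 and 6 with the 75th percentile over probes detected on all arrays, 7 and 7 with quantile normalization, 3 and 9 with cyclic loess, 2 and 7 with normexp, and 0 and 2 with the 50th percentile, so its direction is not settled either. At 72 h, 26 were called, 15 higher and 11 lower, beside 65.1% of all genes, 35.9% higher and 29.3% lower. The 72 h split turned to 9 and 22 with the 75th percentile over probes detected on all arrays, 10 and 21 with quantile normalization, 9 and 31 with cyclic loess, 10 and 18 with normexp, and 3 and 23 with the 50th percentile, which moved the median of all genes from 0.049 to -0.113. Under all 7 scalings SDHB, NDUFB8 and NDUFV3 stayed higher and 11 members lower, among them SDHA (-0.43), SDHC (-0.37), NDUFB5 (-0.55) and COX7C (-0.16).

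Other mitochondrial genes, read from lists of the OXPHOS pathway, were mostly higher at 72 h under 1 µM, where subunits were more often lower. These lists were drawn up with earlier results of these data known, so their counts are a description, to be read against the 35.2% of all genes that were higher and the 31.0% that were lower. Of the 77 genes of the mitochondrial ribosome, which translates the mitochondrially encoded subunits, 56 rose and 4 fell (72.7% and 5.19%). Examples are MRPS23 at 0.90 and MRPS30 at 0.81, against MRPS25 at -0.71 and MRPL33 at -0.39. Of 24 genes for mitochondrial DNA expression, 17 rose and 2 fell, among them the helicase TWNK (1.16), PNPT1 (0.86) and the transcription factor TFAM (0.36). The 2 that fell were MTERF1 (-1.15, well above background on only 12 of 24 arrays) and MTERF2 (-0.35), of the mitochondrial transcription termination factor family.

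Protein import showed the largest share, with 23 of 28 genes higher and 3 lower. TOMM40, the channel of the outer membrane, was at 1.22, PAM16 at 1.14, TOMM7 at -0.49 and TIMM13 at -0.27. Of 16 carriers, cytochrome c and other electron donors, 9 rose and 2 fell. CYCS, cytochrome c itself, was at 0.98, HCCS, which attaches its heme, at 0.89, SLC25A6, an ADP/ATP carrier, at -0.43 and ETFB at -0.27. Of 17 TCA cycle genes 9 rose, such as IDH3A (0.72) and FH (0.61), and 2 fell, among them PDHB (-0.43).

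The assembly factors divided by complex. For complex I, 9 of 19 rose and 5 fell, with NDUFAF4 at 0.79, NDUFAF2 at 0.68, DMAC1 at -0.76 and NUBPL at -0.41. For complexes II and III together, 6 of 10 rose, led by LYRM7 (0.70), and SDHAF4, which helps SDHA mature, fell (-0.66). For complex IV, 14 of 26 rose, with PET117 at 0.65 and CMC2 at 0.64, and 3 fell, with SURF1 at -0.48 and PET100 at -0.34. For complex V all 3 tested fell, among them TMEM242 (-0.80) and FMC1 (-0.65).

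Of 12 tested regulators of these genes, 8 rose and 2 fell. GABPB1, a subunit of the ETS factor GABP, was at 1.49 and NRF1 at 0.90, while GABPB2 was at -0.30 and CREB1 at -0.30. ESRRA was at 0.34, and the coactivator PPARGC1A, at 0.23, was not called (adjusted p = 0.26). Under all 7 scalings the ribosome, DNA expression, import, carrier and TCA cycle lists had more genes higher than lower, and the subunits more lower than higher. The 6 glial markers were all lower at 72 h under 1 µM, from -0.25 for VIM to -2.71 for GFAP, as were the neuronal and oligodendrocyte genes RBFOX3 (-1.58) and MBP (-0.58). RBFOX3 also differed by slide among DMSO arrays at 72 h, at 2.78 and 2.76 on slide 1 and 2.11 and 2.29 on slide 2. The part of these markers in the results above was not tested.

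**Figure D5:**
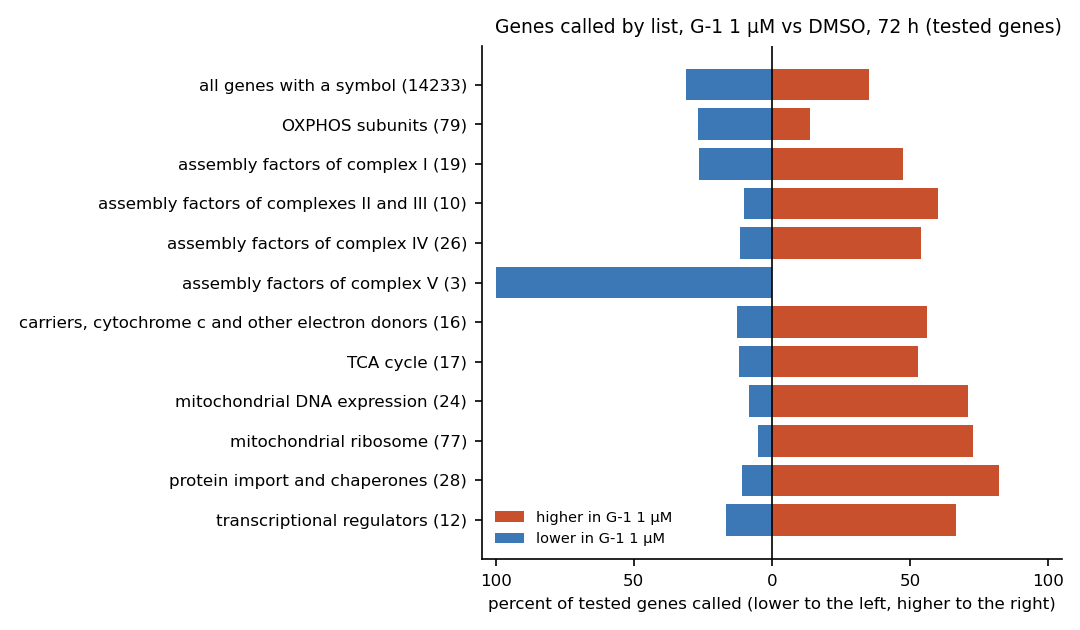
Percent of the tested genes of each list that were called higher (red, right) or lower (blue, left) in G-1 1 µM against DMSO at 72 h, with the number tested in parentheses. OXPHOS subunits had 13.9% higher and 26.6% lower, and the mitochondrial ribosome 72.7% and 5.19%.

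The 3 motifs were counted in promoter windows running from 250 bases before to 50 after the start, on both strands, for the 69 members that the RefSeq table lists. The ETS core was in 21 of 69 members (30.4%) and in 12.2% of all 27305 genes. The YY1 core AAGATGGC was in 12 (17.4%) and in 3.52% of all genes, and the NRF1 core in 4 (5.80%) and in 1.52%. Of members called at 72 h under 1 µM, the ETS core was in 1 of 8 that rose and 6 of 18 that fell, and in 14 of 40 not called. The YY1 core was in 4, 1 and 7 of these. These are exact matches of letters, without variants of the cores, and were not tested against the expression changes.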

How the data were processed

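RNA from 24 U251 cultures was read on 1-colour Agilent arrays. As deposited, the intensity of each spot is the processed signal of Agilent Feature Extraction (12.1.1.1 in the file headers, 10.7.3.1 in the submitters' processing notes), background-subtracted within the array. The authors' deposited table holds log2 values shifted to each array's 75th percentile and centred on each probe's median, and served as an alternative.

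Here, control spots were left out, spots of a probe averaged, log2 taken and each array's 75th percentile subtracted. Probes well above background on every array of at least 1 group were tested (22970), and 35028 of 35956 probes with a RefSeq accession were matched to a symbol. Groups were compared with limma 3.58.1 in R 4.3.3 over all 24 arrays, without a replicate block. Groups followed the sample titles, because the duration entry goes against the title for the IC50 24 h and the 1 µM 72 h arrays. The number of arrays limits the precision. The script was tested on simulated data.

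Members and gene lists were chosen with earlier results of these data known. Values per array are given for up to 4 called members of each complex with the largest change at 72 h under 1 µM, up to 4 with the largest called interaction, all SDH subunits, and COX6B2 beside COX4I1; other list genes are up to 2 in each direction with the largest called change, plus PPARGC1A, NRF1, TFAM and ESRRA. IC50 values of single genes and probes that disagreed were added after their values were seen. Replicate numbers stand for 4 independent experiments: between DMSO and 1 µM at 24 h same-numbered arrays deviated together (correlations 0.166 to 0.281), which did not hold for every pair of groups. Alternatives covered scaling, background correction, filter, probe choice, test, replicate and slide blocks and each left-out array; the random slide block was chosen after seeing the data.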

Additional observations from a re-analysis of the deposited data

Results flagged for a closer look

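The effect of 1 µM G-1 against DMSO differed between 72 h and 24 h (interaction in limma, all n = 4 per group) in 10 of the subunits described singly. The difference of the log2 effects was 0.675 for SDHD (adjusted p = 0.026), 0.392 for NDUFA9 (0.0169), 0.328 for ATP5F1C (0.0259), 0.299 for SDHB (0.0291) and 0.262 for NDUFAB1 (0.0267). It was -0.43 for UQCR11 (0.0143), -0.368 for ATP5F1E (0.0433), -0.325 for COX7C (0.00781), -0.319 for NDUFA10 (0.00702) and -0.305 for SDHA (0.0341).

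A single array stood apart from the other 3 of its group in 8 of 120 sets checked, where chance gives about 1 in 20. The measure is the gap to the nearest array divided by the range of the group. At 72 h under the IC50 dose it was 0.976 for ATP5F1D (replicate 4 at 5.764, nearest 5.984), 0.971 for COX4I1 (replicate 2 at 7.129, nearest 7.245) and 0.937 for ATP5MGL (replicate 2 at 2.95, nearest 4.25). At 24 h under that dose it was 0.861 for SDHA, whose replicate 1 was lowest. Under DMSO it was 0.862 for ATP5MGL (replicate 2 highest) and 0.856 for UQCR11 (replicate 2 lowest) at 24 h, and 0.885 for COX7C (replicate 4 highest) at 72 h. Under 1 µM at 72 h it was 0.855 for NDUFB5, whose replicate 2 was lowest. DMSO replicate 2 at 24 h and IC50 replicate 2 at 72 h were each the only array of their group on their slide. The part of the slide in their values was not tested.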

How the results depend on the processing

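Of 994 values recomputed for 42 results, 875 kept direction and side of the threshold, 118 (in 22 results) kept direction only, and 1 turned: ATP5F1E at 72 h, 0.101 as the mean over its probes (not called).

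For 1 µM against DMSO at 72 h the members' median was -0.123 with the 50th percentile, -0.135 with the 75th percentile over detected probes and -0.117 with cyclic loess, and the count of calls was 20 with no filter and 1 with a fold above 2, also by the methods' unadjusted test with that fold. At 24 h the count was 2 with the 50th percentile, 9 with normexp, 7 with only the arrays compared, 8 with slide as a random block and 1 under either fold rule; the median was -0.018, -0.011 and -0.038 under those 3 scalings, -0.04 with normexp and -0.009 with quantile normalization. Against the IC50 dose at 72 h the median was -0.146, -0.08 and -0.11 under them, -0.053 with normexp and -0.053 with quantile normalization, and the count was 40 with cyclic loess and 1 under either fold rule.

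For the IC50 dose against DMSO the median was 0.045 at 24 h and 0.013 at 72 h with the 50th percentile, and at 72 h -0.01 with cyclic loess and 0.001 with quantile normalization, so its sign is not settled. For the interaction the count was 4 with the 50th percentile, 0 with no filter, 8 with normexp and 0 with a fold above 2, and the median -0.03 with normexp. For 72 h against 24 h under 1 µM the count was 22 with no filter and 0 under either fold rule, and the median -0.113 with quantile normalization. Under DMSO that count was 1 over detected probes, 3 with normexp and 1 with slide as a block.

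With the replicate block the counts were 15 at 24 h, 32 at 72 h, 41 for 72 h against 24 h under 1 µM, 18 for the interaction and 28 against IC50 at 72 h, and 2 in place of 0 for DMSO over time. Leaving out 1 array gave 5 to 10 calls at 24 h, 24 to 32 at 72 h, 9 to 19 for the interaction and 0 to 1 for DMSO over time (1 without DMSO replicate 1 at 24 h). No probe was saturated, so leaving out saturated spots gave no other value. Spots near background limit the dimmest probes.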
